A study of Drosophila melanogaster with 3 samples.

Results

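The gene *jing* (FBgn0086655) was taken up because its territory held more summits of the Zen-eGFP IDR set than that of any other protein-coding gene. The territory was the annotated gene body with 2 kb on either side, and a summit is the position in a peak that the authors' caller gave as its highest point. It held 28 of the 7405 summits of the IDR set, the peaks the authors kept by the irreproducible discovery rate. Of the 13945 protein-coding genes on arms 2L, 2R, 3L, 3R, 4 and X, 6533 (46.8%) had at least 1 such summit in their territory, and none had more than *jing*. Since *jing* was chosen by this count, its summit number and density are given as a description with no test.

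The data are chromatin immunoprecipitation and sequencing (ChIP-seq) peak lists from a transgenic *Drosophila melanogaster* line that expresses a zen-eGFP fusion, with the tag at the C terminus of Zen. All 3 libraries came from this line, from whole embryos of both sexes pooled at 0 to 4 h of age, sonicated to fragments of 200 to 800 bp and precipitated with an antibody against GFP. They are separate biological replicates of a single group per the labels, and no second condition was compared. The promoter that drives the fusion is not given in the sources used here, and no library from embryos without the tagged protein was analysed here, so binding by Zen and recovery of open chromatin without it cannot be told apart. Whole embryos mix all cell types, so a summit does not say in which cells it was bound. Sequencing depth is unknown, because read counts are absent from the peak lists.

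Zen is a homeodomain protein made on the dorsal side of the early embryo, where it is needed for the amnioserosa, an extraembryonic tissue. *jing* encodes a zinc-finger protein of the nucleus, related to mammalian AEBP2, a protein that associates with Polycomb repressive complex 2 (PRC2). In flies it is known for roles in the migration of border cells in the ovary, in the midline of the central nervous system and in the trachea.

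On the dm6 assembly, *jing* lies on the plus strand of 2R from 6502006 to 6621792, and its territory covers 124 kb. The Ensembl annotation gives 4 transcripts with 3 distinct starts, at 6502006, at 6610487 and at 6613768. The later starts lie 108 kb and 112 kb into the gene. A first exon of 1.68 kb is followed by an intron of 107 kb, and the other 8 exons lie in the last 11.3 kb. No sequence is printed for these sites.

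Nearly all of the summits fell in that first intron, which takes up 107 kb of the 124 kb territory. It held 26 of the 28 IDR summits, or 0.243 per kb. The whole territory had 0.226 per kb, so the intron was near that density. A single summit lay upstream of the gene, in an intergenic interval, and a single summit lay in the 11.3 kb after the intron, in the 5' UTR exon at the second start. The first exon and the 2 kb after the gene held 0. The libraries' own lists, each taken to its strongest 7405 summits so as to match the IDR set in size, were counted in 3 equal stretches of the intron. From 5' to 3' these held 14, 6 and 10 summits in replicate 1, 17, 6 and 10 in replicate 2, and 8, 4 and 7 in replicate 3. In each library the middle stretch had the fewest, as it did in the IDR set, with 12, 5 and 9.

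**Figure D1:**
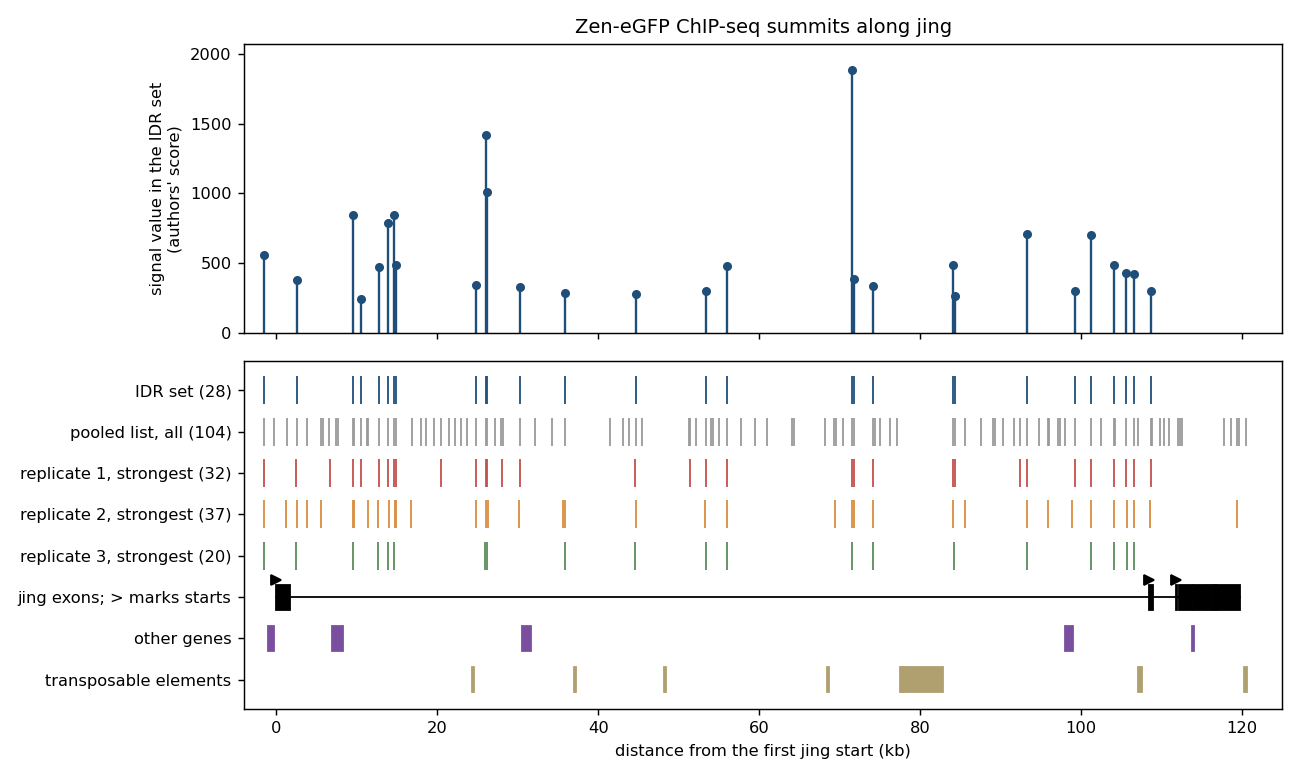
Summits along *jing* by distance from its first start (kb). Upper plot, signal value of each IDR summit, a score from the authors' caller. Lower plot, tick marks for summits of the IDR set (28), the whole pooled list (104) and the strongest 7405 summits of replicates 1, 2 and 3 (32, 37 and 20), above the exons, starts, overlapping genes and transposable elements. The exons after the long intron carry a single IDR summit, and the tallest line stands at 71.5 kb.

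The strongest of them lay deep in the intron. Ranks are by the signal value of the deposited lists, with rank 1 the strongest. At 71.5 kb from the first start, the summit at 6573554 ranked 156 in the IDR set, in an interval from 6573060 to 6574039 (980 bp, the widest at *jing*). Its counterparts ranked 114, 81 and 548 in replicates 1, 2 and 3. This summit was the best placed of *jing* in each of the libraries.

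At 26.0 kb, an interval from 6527737 to 6528505 held a pair of summits, at 6528036 and 6528239. The first ranked 317 in the IDR set and 150, 155 and 1554 in the libraries. The second ranked 676, with library ranks of 386, 461 and 4578. In both, replicate 3 placed the site far lower than the other libraries did.

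Next came a summit at 14.7 kb, ranked 964 (776, 596 and 1943 in the libraries), in an interval from 6516437 to 6517055. A summit at 9.51 kb, in an interval from 6511357 to 6511717, ranked 980, with library ranks of 892, 685 and 1618. A summit at 13.9 kb, from 6515755 to 6516142, ranked 1112, with library ranks of 703, 1110 and 2086. These sites stand close together near the 5' end of the intron, and replicate 3 again gave the lowest place to each.

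Replicate 3 did not give the lowest place everywhere. The summit at 93.3 kb ranked 1346 in the IDR set and 1202, 4020 and 1071 in the libraries. The summit at 101 kb, in an interval from 6603041 to 6603284, ranked 1364 and stood at 1863, 1666 and 1013. Both were placed best by replicate 3, which did so at 1 other *jing* summit with counterparts in all libraries. The neighbour at 104 kb stood at 2325, 1769 and 4030, again lowest in replicate 3.

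Over the whole gene the strengths were spread through the IDR set. The median rank was 2911.5, where the middle of the set is 3703. The strongest 25% of the set held 8 of the 28 and the strongest 10% held 3, while 4 fell in the weakest 25%. The libraries' own strongest summits at *jing* lay in the strongest 25% of their lists for 31.2%, 35.1% and 25%, a mean of 30.5% ± 5.11 (SD, n = 3). The weakest *jing* summit of the IDR set, at 10.5 kb, ranked 7270, and the best ranked of the pooled list that the set left out stood at 8079.

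**Figure D2:**
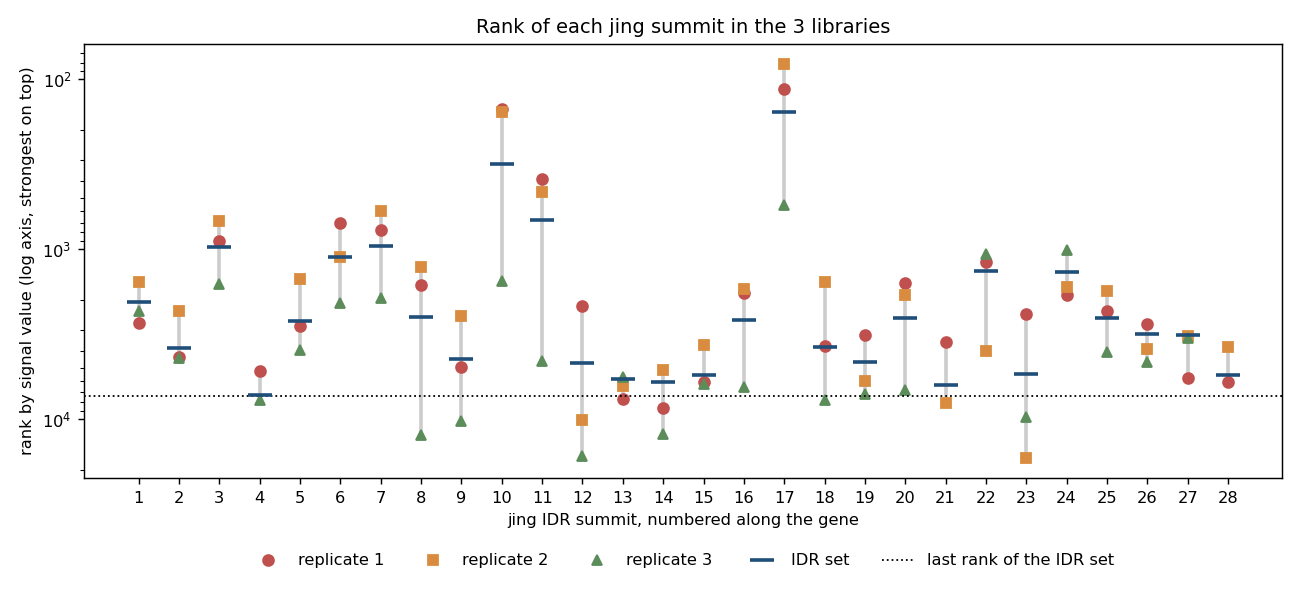
Rank by signal value (log axis, strongest on top) of each of the 28 *jing* IDR summits, numbered along the gene, in replicates 1, 2 and 3 and in the IDR set. A missing marker means no library summit within 100 bp, and the dotted line is the last rank of the IDR set, 7405. Summit 17 is highest in each list, and the triangles of replicate 3 are lowest for 19 of the 25 summits with 3 markers.

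Between libraries, a counterpart was a summit within 100 bp. In the full library lists, 25 of the 28 summits (89.3%) had a counterpart in all 3, beside 88.3% of all IDR summits, so *jing* was near the background. With a limit of 50 bp in place of 100 bp the share fell to 53.6%. No share over all IDR summits is given at 50 bp, so this fall is not compared with the whole set. Replicate 1 had a counterpart for 28, replicate 2 for 27 and replicate 3 for 26. The summit at 10.5 kb had none in replicate 2, and those at 84.3 kb and 109 kb had none in replicate 3. The median distance to the counterpart was 19.5 bp, 18 bp and 18.5 bp in replicates 1, 2 and 3, against 13 bp, 15 bp and 17 bp over all IDR summits. The full library lists are dense here, since 14.8% to 16.4% of the territory lies within 100 bp of one of their summits.

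Restricting each library to its strongest 7405 summits left 26, 24 and 19 of the 28 with a counterpart in replicates 1, 2 and 3. All 3 strongest lists held 18 of them (64.3%, against 57.7% of all IDR summits). The libraries' own strongest summits in the territory numbered 32, 37 and 20, a mean of 29.7 ± 8.74 (SD, n = 3). Of these, 8 of the 32 (25%), 14 of the 37 (37.8%) and 0 of the 20 had no counterpart within 100 bp in the strongest list of either other library. Over the whole strongest lists the shares were 15.9%, 19.6% and 23.1%.

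Replicate 3 also ranked *jing* sites lower. Median library ranks of the counterparts were 2566.5, 1856 and 4622.5 in replicates 1, 2 and 3. Among the 25 summits with counterparts throughout, replicate 3 gave the weakest rank for 19 (76%), against 35.0% over all IDR summits. Its full list held 91 summits here, beside 100 and 101 in replicates 1 and 2. Its strongest intervals had a median width of 360 bp against 430 bp in replicates 1 and 2, both at *jing* and over the whole lists. What sets replicate 3 apart at *jing* was not tested. Without replicate 3, the strongest summits of replicate 1 with a counterpart in replicate 2 numbered 22 in the territory, or 0.178 per kb, and *jing* ranked 6 among long genes.

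The sites were far from gene starts. Of the 28, 25 (89.3%) lay in introns more than 500 bp from any annotated start, against 29.9% of all IDR summits. Only 2 (7.14%) lay within 500 bp of a start, against 46.8% of all IDR summits. The median distance to the nearest start of any gene was 5.46 kb, against 646 bp over all IDR summits, and the farthest lay 27.4 kb away. *jing* is a long gene with few starts, and the part of its length in these distances was not tested. Among the 28 other long genes with 10 or more IDR summits, the median share near a start was 17.9%. In this 5 of them were below *jing*, 22 above and 1 equal. Their median share in introns away from starts was 77.7%, with a range from 58.3% to 91.7%, and 2 were above *jing*.

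At the starts themselves the signal was weak. The first start had its nearest IDR summit 1540 bp upstream, at 6500466, ranked 2055 (2731, 1561 and 2308 in the libraries). A pooled-list summit 231 bp upstream of that start ranked 10553 and was not in the IDR set. The second start had an IDR summit 164 bp downstream, at 6610651, in an interval from 6610443 to 6610858, ranked 5533. It ranked 6093 in replicate 1 and 3799 in replicate 2, and replicate 3 listed no summit within 100 bp of it. The nearest one in that library lay 283 bp from the start, at rank 8716. The third start had its nearest IDR summit 3117 bp away, and a pooled-list summit at 273 bp ranked 14187.

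Besides transposable elements, 5 other annotated genes overlap the territory. A single one is protein-coding, *CG15233*, an uncharacterised gene that lies in the intron on the minus strand from 6600044 to 6600978. An IDR summit at 6601205, 227 bp upstream of its start, ranked 5460, with library ranks of 2402, 17115 and 9807. The libraries thus placed this site far apart, high in replicate 1 and low in replicate 2. The noncoding *lncRNA:CR45127*, also within the intron, had an IDR summit 1219 bp upstream (the one ranked 980). For *lncRNA:CR46075* and *lncRNA:CR43905* the nearest summits lay 1306 bp and 1334 bp downstream, and for *sisRNA:CR46361* 5101 bp upstream.

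Spacing along the gene was uneven. The median gap between neighbours was 2403 bp, against 5846 bp over all IDR summits, and the gaps ran from 199 bp to 15.5 kb. In the libraries' own strongest lists it was 2241, 2106 and 4081 bp, and it was 3639 bp without replicate 1 and 3612 bp without replicate 2. Joining neighbours less than 3 kb apart gave 12 groups, of which 6 were single summits. The largest groups held 6 summits each, a grouping made after the positions were seen. The first ran from 9.51 kb to 14.9 kb, with a best rank of 964. The other ran from 99.2 kb to 109 kb, up to the second start, with a best rank of 1364.

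Of the 27 gaps, 4 were under 250 bp, and these measured 199 to 206 bp. The next gap measured 775 bp. Such close pairs made up 14.8% of the gaps at *jing* and 5.58% of those over all IDR summits, where the smallest gap was also 199 bp. A spacing near that floor was therefore found in the whole set and not at *jing* alone. At 3 places the pair shared an interval, so the 28 summits sat in 25 intervals. Interval widths ran from 104 to 980 bp, and 14 of the 28 (50%) had the width of 416 bp that was the most frequent in the whole set (54.2%).

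Outside the IDR set, the pooled list placed another 76 summits in the territory, 104 in all of 29999. They ranked from 8079 to 29965. Counterparts in all 3 library lists were found for 14 of the 76 (18.4%), against 22.0% of all pooled summits left out of the IDR set. By position, 64 lay in introns, 5 in 3' UTRs, 3 in coding sequence, 2 in intergenic sequence, 1 in a 5' UTR and 1 in another exon. The long intron alone takes up 107 kb of the 124 kb territory, and these classes have no share over all pooled summits beside them. The 11.3 kb after the long intron, with a single IDR summit, held 12 of the pooled list. This was 1.06 per kb, against 0.824 per kb in the intron, whereas the IDR set gave 0.0884 and 0.243 per kb. In the full lists of replicates 1, 2 and 3 it had 0.708, 0.973 and 0.973 per kb, against 0.833, 0.777 and 0.712 in the intron.

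The territory stood out from the DNA before it and less so from the DNA after it. In the 100 kb before it there were 0 IDR summits and 2 pooled-list summits. Transposable elements cover 70.7 kb of that stretch, it holds 0 protein-coding genes, and the nearest one, *Pld*, lies 247 kb away with no IDR summit. Recovery of reads from repeated DNA in these libraries was not tested. In the 100 kb after it, with 28 protein-coding genes and 2.35 kb of transposable elements, there were 13 IDR and 44 pooled-list summits. *CG33919*, the next gene on that side, lies 2.04 kb from *jing* and had no IDR summit. Within the territory itself, transposable elements cover 6.68 kb and held 0 IDR summits and 2 of the pooled list.

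**Figure D3:**
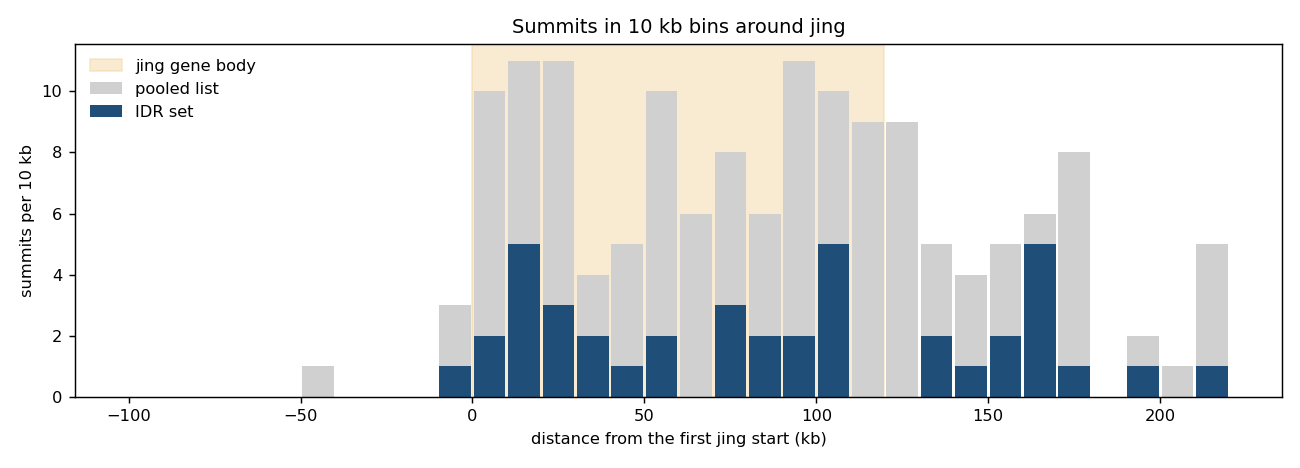
Summits in bins of 10 kb around *jing*, by distance from its first start (kb), for the pooled list (grey) and the IDR set (blue, drawn in front). The shaded band is the gene body. Before the gene the bins are almost empty, and after it summits continue at a lower density, with 13 IDR summits in the 100 kb after the territory.

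Against other long genes, *jing* was dense but not the densest. Among 358 protein-coding genes with a territory of at least 50 kb, it ranked 5 with 0.226 IDR summits per kb. Over the chromosome arms as a whole there were 0.0553 IDR summits per kb. The median long gene had 0.0212 per kb, so *jing* was 10.7 times as dense as that gene, and 93 had no IDR summit. In the libraries it had 0.259, 0.299 and 0.162 per kb, a mean of 0.240 ± 0.0706 (SD, n = 3), and ranked 4, 3 and 12. Replicate 3 again stood lowest. In the whole pooled list it had 0.840 per kb against a median of 0.121, and ranked 2. When genes with territories of at least 20 kb were taken in, *jing* ranked 37 of 1298 by density.

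The denser genes were all shorter. *CG42342* had 25 summits at 0.344 per kb, *shn*, a zinc-finger factor of Dpp signalling, 16 at 0.257 per kb, and *rdx*, a substrate adaptor of Cullin 3 ligases, 17 at 0.246 per kb. *MSAmiP* followed with 17, also at 0.246 per kb. By count, the genes after *jing* and *CG42342* were the Hox gene *Antp* (21 summits, 0.196 per kb), the cell adhesion gene *kirre* (20, 0.0502 per kb) and the homeodomain cofactor gene *hth* (18, 0.132 per kb). With its length, *jing* thus combined a high count with a high density. *kirre* had a high count at a lower density, which was still above the long-gene median of 0.0212 per kb.

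Over the 3 libraries, the genes with summits per kb most like those of *jing* were *Raf*, *MSAmiP* and *shn*, by the distance between their 3 densities. *Raf*, a kinase gene of the receptor tyrosine kinase pathway, had 0.248, 0.248 and 0.172 per kb (distance 0.0529). *MSAmiP* had 0.246, 0.347 and 0.188 (distance 0.0562), and *shn* 0.273, 0.289 and 0.225 (distance 0.0655). The choice of these genes by likeness sets the order of the libraries in them. The median over all long genes was 0.0205, 0.0196 and 0.0291 per kb in replicates 1, 2 and 3, highest in replicate 3. The median gap of 2403 bp at *jing* compares with a median of 3632 bp over the 28 other long genes with 10 or more summits, 5 of which had shorter ones. Their median share with counterparts in all libraries was 90%, beside 89.3% at *jing*.

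**Figure D4:**
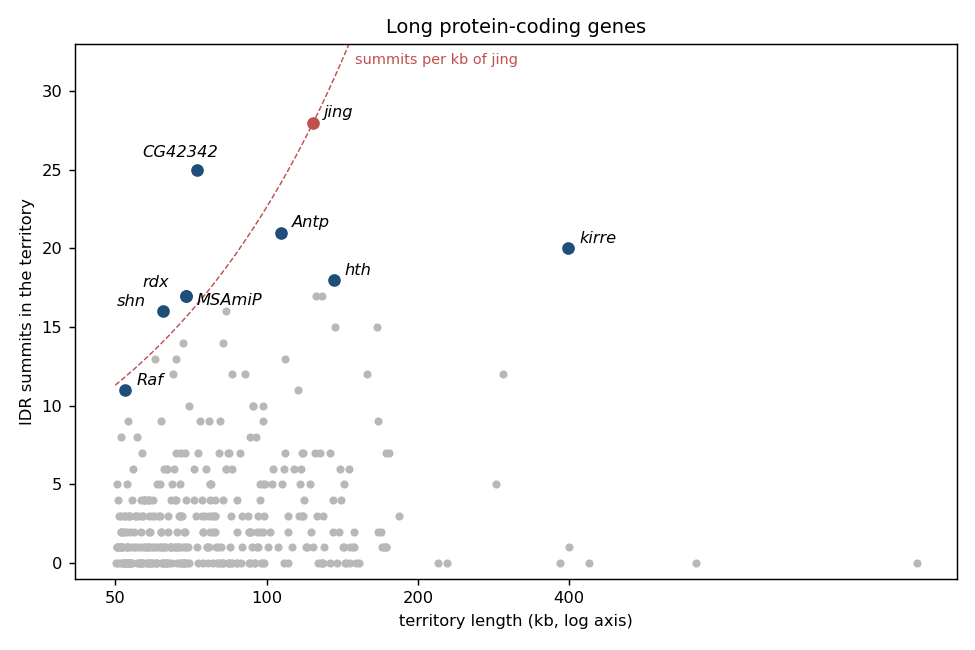
IDR summits in the territory of each of 358 long protein-coding genes against territory length (kb, log axis). The dashed curve marks the density of *jing*, 0.226 per kb, and named genes are those with the most summits, the highest density or densities most like those of *jing*. *jing* has the highest count, and *CG42342*, *shn*, *rdx* and *MSAmiP* lie above the dashed curve (the points of *rdx* and *MSAmiP* almost coincide).

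Genes that act in the same tissues as *jing*, and genes of PRC2, were read beside it from lists written from background knowledge. Of 8 genes of the midline, trachea or border cells, 6 had an IDR summit, beside 46.8% of all protein-coding genes. The receptor gene *Egfr* had 9 (best rank 915), the midline repellent gene *sli* 7 (1968), the midline regulator *sim* 6 (2084) and the tracheal regulator *trh* 4 (2229). The border cell regulator *slbo* had 1 (827) and the FGF receptor gene *btl* 1 (6408). *tgo*, which encodes the shared partner of the sim and trh proteins, and the POU factor gene *vvl* had 0. Of this list only *sli* reaches 50 kb, so the members differ from *jing* in length and their counts were not tested against it.

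All 7 PRC2 genes had an IDR summit, 8 summits in all, beside 46.8% of all protein-coding genes with at least 1. *Caf1-55*, a histone-binding subunit, held one at rank 3, and the methyltransferase gene *E(z)* one at rank 212. *Su(z)12* stood at 824, the accessory genes *Pcl* and *Jarid2* at 1938 and 4528, and the WD-repeat genes *esc* and *escl* at 2802 and 6894. These genes are short, with territories of 5.92 to 13.5 kb, and a territory can take in a neighbour's promoter.

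Short motifs were counted in windows of 201 bp around each summit, on both strands. Shares were set beside 389 windows tiled over the *jing* territory that held no pooled-list summit, and beside all 7405 IDR summits. The homeodomain core TAATTA was in 3 of the 28 *jing* windows (10.7%), against 11.8% of the summit-free windows and 18.6% of all IDR summits. Without replicate 1 or without replicate 2 the share was 5.26%, and in the libraries' own strongest lists it was 12.5%, 2.70% and 10%. The related TAATGA was in 8 (28.6%), against 15.4% and 17.2%. Either of them was in 10 (35.7%), against 24.4% and 32.7%. TAATTA was thus below both of these backgrounds and TAATGA above them, in no more than 28 windows. In 34 flanking windows 1000 bp from the *jing* summits the shares were lower, 5.88% for TAATTA and 11.8% for TAATGA. The IDR summits of all genes in introns more than 500 bp from a start gave 17.7% and 19.7%. Whether TAATTA at *jing* stood high or low thus depended on the background.

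The core CAGGTA is bound by Zelda, a maternally supplied zinc-finger protein that opens early embryonic chromatin. It was in 7 *jing* windows (25%), against 4.88% of the summit-free windows and 10.2% of all IDR summits. The same letters reordered as CGAGTA were in 7.14%, 3.08% and 4.66%. Of the 76 weaker pooled-list summits, 1.32% held CAGGTA. Among the 6 strongest *jing* summits 5 held it, the exception being the one ranked 980. Of the 7 windows with it, 6 were in the first of the 3 stretches of the intron. Both counts were made after the values were seen. In steps of 25% from the strongest, the share with CAGGTA over all IDR summits was 12.0%, 10.6%, 9.62% and 8.48%. In the same order, *jing* had it in 5 of 8, 1 of 8, 1 of 8 and 0 of 4 windows.

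GAGAGA, the core of GAGA factor sites, was in 6 windows (21.4%), against 6.17% of the summit-free windows and 10.2% of all IDR summits. The GATA-type TGATAA was in 14.3%, against 13.4% and 13.8%. TATCGA, the core of DREF sites at housekeeping promoters, was in 7.14%, against 5.91% and 16.5%. The IDR summits of all genes in introns more than 500 bp from a start, the class of 25 of the 28, give 7.01% for TATCGA, 12.0% for CAGGTA and 12.4% for GAGAGA. Against that class the share of DREF cores was about the same and the other shares were higher. The reordered homeodomain core TAAATT was in 3.57%, against 26.2% and 33.3%. The windows were also rich in G and C, with a median of 48.8% against 44.8% in the summit-free windows and 38.3% over all IDR summits. Base composition thus also differed between the sets. Its part in the motif shares was not tested.

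**Figure D5:**
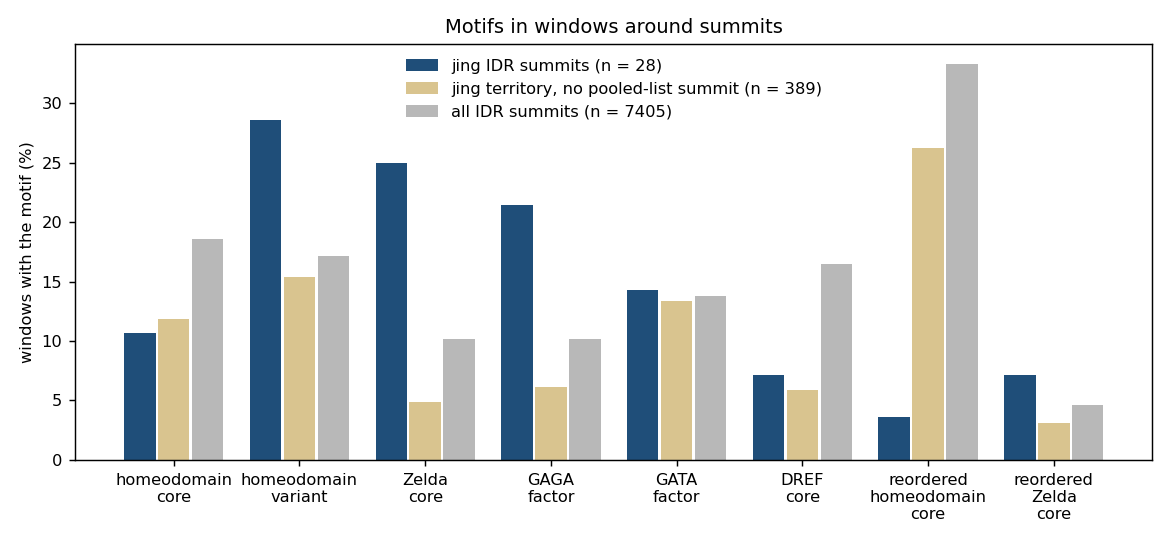
Percent of windows of 201 bp that hold each motif on either strand, for the 28 *jing* IDR summits, 389 windows of the *jing* territory without a pooled-list summit, and all 7405 IDR summits. Bars start at 0 and carry no error, since the summits of 1 gene are not replicates. The *jing* bars are tallest for the homeodomain variant, the Zelda core and its reordered control, the GAGA factor motif and, by a small margin, the GATA motif, and lowest of the 3 for the homeodomain core and its reordered control.

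Other long genes with 10 or more IDR summits give these shares a scale. Their median share with CAGGTA was 10%, with a range from 0 to 36.4%. Of these genes 2, *Raf* and *Ubx*, were above *jing*, and 1 was equal to it. Their median share with TAATTA was 14.6%, and 18 were above *jing*. In median G and C content none of the 28 was above *jing*, *CG42342* equalled it, and the median over them was 39.6%.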

How the data were processed

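Per the deposited file notes, the authors called peaks on dm6 against control alignments, once per library and once on the pool, and derived an IDR set. Which caller and aligner they used is not given in the sources used here, nor are versions. Each narrowPeak list gives an interval, a summit offset and a signal value. The deposited signal value is a score, and served here for ranks inside 1 list. The IDR set equals the 7405 strongest of the pooled list, which draws on all 3 libraries, so library counterparts are not independent support.

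Genes came from Ensembl release 115. Windows for motifs were read from a RefSeq genome whose *jing* start and end equal those of Ensembl. A summit in overlapping features was classed as coding sequence first, then UTR, other exon and intron. Python 3.11.15, numpy 2.4.6, pandas 2.3.3 and matplotlib 3.10.9 were used, and the steps were tested on simulated data. No test was run, since *jing* was chosen by its count and summits of 1 gene are not replicates. Without a replicate, strongest summits of the lower-numbered remaining library were kept if matched in the other's strongest list. Members, lists, motifs and named genes (overlapping and neighbouring genes, the 4 next by count, the 5 densest and 3 most alike long genes, and both lists) were chosen with earlier results of these data known. *Ubx*, the group gap, the 10-summit limit and the 3 stretches of the intron were chosen after values were seen. Chromosome arm 2R sequence is not printed.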

Additional observations from a re-analysis of the deposited data

How the results depend on the processing

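Of 70 values recomputed under other settings, 51 moved by less than the spread between libraries (1 SD) or, for the number of summits, by less than 1.5 times, and 19 by more. With the strongest 50% of the IDR set, *jing* had 16 summits, 0.129 per kb, of which 100% had counterparts in all 3 libraries, 18.8% lay in the strongest 25% of those peaks and 93.8% in introns away from starts. With 2 times as many pooled-list peaks it had 53 summits, 0.428 per kb, and 67.9% had counterparts. A match within 50 bp gave 53.6%, and the strongest peaks of each library 64.3%, against 57.7% of all IDR summits. The counterpart shares of 100%, 67.9% and 53.6% have no value over all genes beside them. Among genes of at least 20 kb its rank by density was 37, and among those of at least 100 kb it was 1. Leaving out each replicate in turn gave 19 to 22 summits, 0.153 to 0.178 per kb, with ranks of 5 to 7. Their median gaps were 2652 to 3639 bp, 90.9% to 94.7% lay in introns away from starts and 5.26% to 9.09% held TAATTA. The summit counts fall because a summit then had to be in the strongest lists of both remaining libraries. The share with counterparts in the remaining libraries, 89.3% to 96.4%, was instead taken over all *jing* summits of the IDR set. That set still draws on the replicate left out. Depth is unknown, so no precision from read counts can be given.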
